A study of Rattus norvegicus with 18 samples.

Results

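The S100 genes described here were 6 genes of the rat chosen by name: S100a4, S100a6, S100a10, S100a11, S100a1 and S100b. They are 6 of the 13810 genes that the arrays name through a probe set with a single gene symbol, and each is represented by 1 probe set, all 6 on the RAE230A array (chip A). The material was 9 colonies of fetal rat calvaria (skull vault) cells, each raised from 1 cell isolated by flow cytometry and hybridized to both an RAE230A and an RAE230B array (chip B), 18 arrays in all. Colonies stayed in culture for 4 weeks (37 C, 5% CO2) in a-MEM containing ascorbic acid, BGP, Dex and fetal bovine serum, so that every colony type shared these additives. The submitters typed the colonies from osteoblast and adipocyte genes: 3 expressed osteocalcin (called osteocalcin I, II and III below), 3 expressed osteocalcin together with adipsin (both I, II and III) and 3 expressed neither gene (neither I, II and III). Each colony is 1 clone of 100 to 300 cells whose RNA had to be amplified. Rat strain, exact age and the number of cell preparations behind the colonies are not stated in the labels, and p-values measure the spread between these colonies.

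S100 proteins are small EF-hand proteins that pair as dimers, change shape on binding calcium and then dock onto other proteins. S100A4 binds nonmuscle myosin and has been described as a brake on mineralisation in mouse osteoblast cultures, S100A6 (calcyclin) binds the adaptor CACYBP, and S100A11 binds annexin A1. S100A10 is the family member whose EF-hands no longer bind calcium, and it forms a complex with annexin A2 at the plasma membrane. S100A1 acts on calcium handling in striated muscle, and S100B is best known from glia, with expression in adipocytes, chondrocytes and melanocytes as well. The comparison of colony types asks whether transcripts of these genes differ between colonies with the bone marker alone, with bone and fat markers, and with neither marker.

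Before the S100 values, some facts on the arrays bear on every result. Signals were brought to a 2%-trimmed mean of 1500 on each array, because the deposited chip A array of osteocalcin I had a trimmed mean of 64.4 and all others 1500. The genes that gave the colony types their names were dim on the arrays: Bglap (osteocalcin) lay between 20.9 and 299 and Cfd (adipsin) between 113 and 522, both below the median signal of the array in all 9 colonies. Cfd was 251 to 522 in both colonies, 136 to 246 in osteocalcin and 113 to 308 in neither colonies, so that both and neither colonies overlapped. Bglap was highest in neither III. At signals this dim the typing cannot be checked on the arrays. Of 7 osteoblast markers on the arrays, 3 (Spp1, Dmp1 and Col1a1) exceeded the array median in at least 3 colonies, with Spp1 (osteopontin) and Col1a1 (type I collagen) among the brightest probe sets everywhere, while Bglap, Ibsp, Alpl and Phex did not in any. Of 8 adipocyte markers, 2 (Adipoq and Pparg) did. Chip A arrays also divide by fluidics station: osteocalcin I to III, both I and both II were run on station 1, and both III and the 3 neither colonies on station 2, so that osteocalcin and neither colonies shared no station there. On chip B, both I to III and neither I were run on station 1 and the other 5 colonies on station 2.

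The S100 genes lie in 3 places of the rat genome (build GRCr8, RefSeq gene table, which matched 6 of 6 by gene identifier). S100a1 (chr2:178291503-178296346), S100a4 (chr2:178388529-178390838) and S100a6 (chr2:178398189-178399763) belong to the S100 cluster of chromosome 2, with S100a6 starting 7350 bases after the end of S100a4 and S100a5 between them. S100a11 (chr2:181875132-181880542) and S100a10 (chr2:181904454-181913101) are next to each other, 23.9 kb apart and 3.48 Mb beyond S100a6. S100b (chr20:12372345-12381159) stands alone on chromosome 20.

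Start regions are shown for the 4 genes that matched an entry of the promoter table: S100a4, S100a6 and S100a11, 3 of the 4 bright genes, and S100b, a dimmer one. S100a10 and S100a1 had none. They are RefSeq sequences of GRCr8 that run 5′ to 3′ from 250 bases before to 50 bases after the start the table uses, at chr2:178388279-178388578 (+ strand), chr2:178398287-178398586 (+ strand), chr2:181874882-181875181 (+ strand) and chr20:12381032-12381331 (- strand). That start is the outer end of the gene span given above for S100a4 and S100a11, but lies 348 bases inside the span for S100a6 and 78 bases inside it for S100b. Capitals mark a match to TATAAA in S100a4, to GGGCGG in S100a6 and S100a11, and to CCAAT or its reverse complement ATTGG in S100b.
S100a4: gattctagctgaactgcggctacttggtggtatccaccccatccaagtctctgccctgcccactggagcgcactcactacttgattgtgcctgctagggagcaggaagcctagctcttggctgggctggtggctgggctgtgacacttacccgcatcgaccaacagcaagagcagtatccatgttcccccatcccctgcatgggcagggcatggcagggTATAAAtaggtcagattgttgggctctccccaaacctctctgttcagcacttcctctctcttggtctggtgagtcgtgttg
S100a6: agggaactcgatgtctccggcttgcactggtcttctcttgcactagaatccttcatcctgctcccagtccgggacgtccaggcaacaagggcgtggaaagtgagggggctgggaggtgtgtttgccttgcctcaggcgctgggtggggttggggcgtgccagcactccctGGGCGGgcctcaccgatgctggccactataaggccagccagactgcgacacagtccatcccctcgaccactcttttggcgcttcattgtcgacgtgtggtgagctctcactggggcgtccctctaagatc
S100a11: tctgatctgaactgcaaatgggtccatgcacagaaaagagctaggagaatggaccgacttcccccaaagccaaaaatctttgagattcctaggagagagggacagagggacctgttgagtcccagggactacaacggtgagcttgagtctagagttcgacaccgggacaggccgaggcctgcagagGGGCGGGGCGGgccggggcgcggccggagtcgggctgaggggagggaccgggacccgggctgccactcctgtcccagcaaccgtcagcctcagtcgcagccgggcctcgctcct
S100b: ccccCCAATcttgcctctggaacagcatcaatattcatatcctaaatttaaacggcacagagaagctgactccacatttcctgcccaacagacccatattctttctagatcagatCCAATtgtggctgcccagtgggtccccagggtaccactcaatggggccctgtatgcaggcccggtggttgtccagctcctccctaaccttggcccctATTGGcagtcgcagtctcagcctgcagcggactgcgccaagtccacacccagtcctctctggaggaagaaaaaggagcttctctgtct
Counted from these starts, TATAAA begins 31 bases upstream in S100a4, the usual place of a TATA box, and 14.2% of the 33469 rat promoter windows of this length hold it on either strand. GGGCGG, the core of a GC box, begins 80 bases upstream in S100a6, within the gene span, and 2 overlapping copies begin 64 and 59 bases upstream in S100a11, against 33.1% of all windows. S100b holds CCAAT 246 and 135 bases upstream and ATTGG, within the gene span, at 38, against 37.5%. TGANTCA, the AP-1 motif, was in none of the 4 windows (7.33% of all), nor was the full palindromic glucocorticoid receptor element (0.0149% of all). The 4 windows thus share none of the 5 motifs searched on both strands. Their GC content was 56.3% for S100a4, 61.3% for S100a6, 63.0% for S100a11 and 54.0% for S100b, each above the median window (51.7%).

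Of the genes, 4 were among the brightest signals of every colony and the other 2 were not. S100a4 ranked between the 99.89th and the 99.98th percentile of its array, S100a6 between 99.79 and 99.99, S100a11 between 98.88 and 99.91, and S100a10 between 98.42 and 99.68. S100b spanned the 47.69th to the 88.09th percentile, and S100a1 the 16.76th to the 48.58th. Percentiles say how bright a probe set was among those of the same array; probe sets bind their targets unequally, so no order of transcript amounts between the genes is read from them. S100a4, S100a6, S100a10 and S100a11 exceeded the array median in 9 of 9 colonies, S100b in 8 and S100a1 in 0. A probe set had to exceed the median in at least 3 colonies to be tested, so 5 of the 6 genes were tested and S100a1 is described only.

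**Figure D1:**
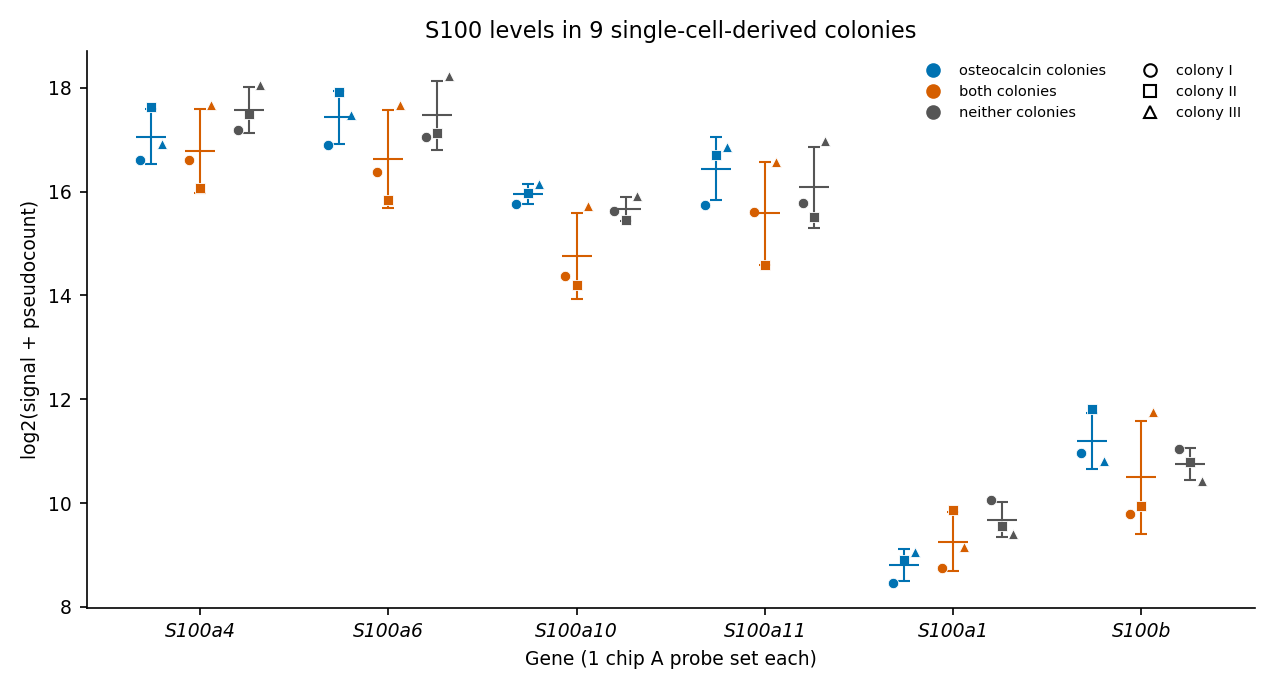
Level of each S100 gene, as log2 of the rescaled chip A signal plus the pseudocount, in each of the 9 colonies, with colour for the colony type and symbol shape for the colony. Horizontal bars are means and vertical bars ± 1 SD (n = 3). S100a4, S100a6, S100a10 and S100a11 are lowest in both II, while both III lies near the colonies of the other types.

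S100a10, the annexin A2 partner, showed the most separation between colony types. Its signal was 55102, 63807 and 71858 in osteocalcin I, II and III, 20965, 18653 and 53568 in both I, II and III, and 50552, 44549 and 61148 in neither I, II and III. The 3 both colonies lay below the 3 osteocalcin colonies, but both III (53568) only just below osteocalcin I (55102), and both III lay inside the range of the neither colonies. On the log2 scale the means were 15.95 ± 0.191 (SD, n = 3) for osteocalcin, 14.76 ± 0.828 for both and 15.66 ± 0.229 for neither.

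By limma, S100a10 was 2.28-fold lower in both than in osteocalcin colonies, a log2 difference of -1.19 (SE 0.437, 95% interval -2.13 to -0.24), with an adjusted p of 1.00 over the 19316 probe sets tested. Of 5 tested S100 genes 0 passed an adjusted p of 0.05 in this comparison, as did 0% of all probe sets (0 of 19316), while 3.38% of all (653) had an unadjusted p under 0.05. Groups did not overlap for 1 of the 5, S100a10, against 10.1% of all probe sets and 5.49% in the same direction. A fit that weights each array by how closely it follows its type mean in these same data gave -1.59 with an adjusted p of 0.0357. It called 87 of the 19316 probe sets, and as its weights come from the same values it is no independent check. The 5 colonies run on station 1 alone, without both III, gave -1.67 with an adjusted p of 0.0453 over the 9421 chip A probe sets. Of these, 38 were called. At the same difference, all colonies but both III and both chips gave an adjusted p of 0.294. With RNA from whole colonies, fewer cells that express a gene and less RNA per cell cannot be told apart.

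Against the neither colonies, S100a10 was lower in both colonies by a log2 difference of -0.90 (95% interval -1.84 to 0.05, adjusted p = 0.526) and the groups overlapped. Within station 2, both III lay above the mean of the neither colonies by 0.05. Between osteocalcin and neither colonies the difference was 0.29 (95% interval -0.65 to 1.24, adjusted p = 0.894), and 1.72 with station as a block (adjusted p = 0.413). These types shared no station on chip A. Their blocked differences, here and below, hold a station term taken from both III against both I and II. Between colony types lay 59.8% of the variance of S100a10, the highest share of the 6 genes, against a median of 23.7% over all kept chip A probe sets.

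S100a6, the calcyclin gene, had signals of 122252, 246831 and 182788 in osteocalcin I, II and III, 84437, 58544 and 207177 in both I, II and III, and 135126, 143112 and 305996 in neither I, II and III. Both I and II were the lowest of the 9 and neither III the highest, and the 3 types overlapped because both III was the third highest. The 2 log2 differences that involve the both colonies were -0.81 from osteocalcin (95% interval -2.01 to 0.39, adjusted p = 1.00) and -0.84 from neither (-2.04 to 0.36, adjusted p = 0.615), the latter turning to 0.20 within station 2. Osteocalcin and neither colonies differed by -0.03 (-1.24 to 1.17, adjusted p = 0.993), and by 1.52 with station as a block (adjusted p = 0.598).

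S100a4, the myosin-binding member, had signals of 99387, 203524 and 123153 in osteocalcin I, II and III, 99340, 68671 and 206598 in both I, II and III, and 148571, 184359 and 271738 in neither I, II and III. Neither III was again the highest and both II the lowest, and all 3 types overlapped. The mean was highest in the neither colonies (17.58 ± 0.441), then in osteocalcin (17.05 ± 0.530) and lowest in both (16.78 ± 0.807; log2, SD, n = 3), and no neighbours in this order differed beyond their spread. The log2 differences were -0.27 for both against osteocalcin (95% interval -1.38 to 0.83), -0.53 for osteocalcin against neither (-1.63 to 0.58) and -0.80 for both against neither (-1.91 to 0.31), with adjusted p of 1.00, 0.817 and 0.604. With station as a block the second became 0.79 and the third 0.08, and the first turned to 0.08 without both II.

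S100a11, the annexin A1 partner, had signals of 54480, 106536 and 119052 in osteocalcin I, II and III, 49630, 24308 and 96583 in both I, II and III, and 55902, 46338 and 128347 in neither I, II and III. Each type held both high and low colonies, so that only 21.9% of the variance lay between types. Both colonies were lower than osteocalcin colonies by a log2 difference of -0.85 (95% interval -2.08 to 0.38, adjusted p = 1.00), which ranged from -1.34 without both III to -0.35 without both II. Differences from the neither colonies were 0.35 for osteocalcin (-0.88 to 1.58, adjusted p = 0.906; 1.82 with station as a block, adjusted p = 0.561) and -0.50 for both (-1.73 to 0.73, adjusted p = 0.772), the latter close to 0 without both II. RefSeq lists 7 further loci named as copies of S100a11, 5 of them pseudogenes, and 1 pseudogene of S100a10; whether their transcripts bind these probes was not tested.

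S100b, the glial member also known from adipocytes, had signals of 1766, 3350 and 1546 in osteocalcin I, II and III, 649, 746 and 3195 in both I, II and III, and 1863, 1529 and 1143 in neither I, II and III. The highest levels were in osteocalcin II and both III and the lowest in both I and II, so the colonies with the fat marker held 2 of the lowest and 1 of the highest values. The log2 differences were -0.70 for both against osteocalcin (SE 0.494), 0.44 for osteocalcin against neither and -0.26 for both against neither, with adjusted p of 1.00, 0.846 and 0.874. With station as a block the second became 2.32 (adjusted p = 0.410) and the third 0.99. Of 4 Schwann cell, glia and neural crest markers on the arrays, 2 (Gfap and Mbp) passed the filter, and Sox10, a defining one, exceeded the array median only in neither I, where S100b was 1863. The summed signal of all 4 of these markers was 1465 to 3100 in osteocalcin and 1368 to 2600 in both colonies. In neither colonies it was 2169 to 5498. The 5498 of neither I included Sox10 at 1329 and Erbb3 at 1024, which failed the filter. The part of this sum in the S100b values was not tested.

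S100a1, the striated muscle member, was below the array median in all 9 colonies, with signals of 115, 240 and 292 in osteocalcin, 193, 696 and 328 in both and 833, 517 and 442 in neither colonies I, II and III. The osteocalcin colonies lay below the neither colonies without overlap, by a log2 difference of -0.87, against 5.86% of tested probe sets that did so, and the both colonies lay in and between these ranges. As the signal was dim throughout and the probe set failed the filter, these values carry no test. Fitted without the filter, the adjusted p was 0.674.

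Over the 2 remaining comparisons the 5 tested genes again gave 0 calls. Between osteocalcin and neither colonies 0% of all probe sets passed the adjusted threshold and 7.5% (1448) had an unadjusted p under 0.05. Of the tested S100 genes 0 had groups that did not overlap, against 12.2% of all. Between both and neither colonies the shares over all probe sets were 0% and 9.75% (1883), with 14.6% not overlapping and again 0 of the tested S100 genes. The means of all 5 genes were lower in both than in osteocalcin colonies, as were 51.2% of all probe sets, and lower than in neither colonies, as were 49.2%. These comparisons share the both colonies, of which both II was the lowest or second lowest of the 9 for each of the 5 genes. Within station 2, both III exceeded the mean of the neither colonies for all 5, by 0.05 to 0.99. The median SE over all probe sets tested was 0.497, so that with 3 colonies a type differences of under 1 log2 unit were hard to tell from the spread.

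**Figure D2:**
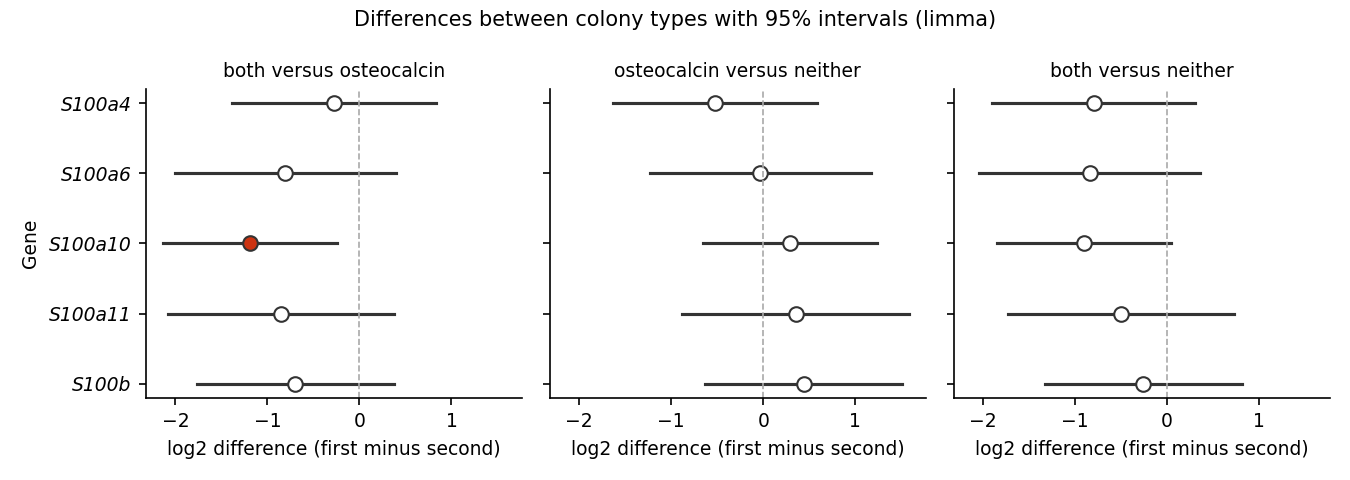
Log2 difference between colony types for the 5 tested S100 genes (points) with 95% intervals from limma (bars), in 1 panel per comparison. The red point marks the gene whose groups do not overlap, S100a10 in both against osteocalcin; every other interval crosses 0.

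Levels differed widely between the 9 colonies. Within a type, S100a10 varied by only 1.3-fold in osteocalcin and 1.37-fold in neither colonies, but by 2.87-fold in both colonies. Over the 9 colonies the highest signal was 3.96 times the lowest for S100a4, 5.23 times for S100a6, 3.85 times for S100a10, 5.28 times for S100a11, 5.16 times for S100b and 7.24 times for S100a1. The SD of the log2 level over the 9 colonies was 0.637 for S100a4, 0.750 for S100a6, 0.694 for S100a10 and 0.792 for S100a11. The median SD was 0.550 over all kept chip A probe sets and 0.490 over the 100 brightest, and the 4 S100 genes stood at the 76th, 89th, 83rd and 90th percentile of the SD among the latter.

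Part of this variation was shared by other bright probe sets of the same array. The mean log2 level of the 96 other probe sets among the 100 brightest of chip A was 15.94, 16.42 and 16.21 in osteocalcin I, II and III, 15.81, 15.50 and 16.34 in both I, II and III, and 15.82, 16.09 and 16.05 in neither I, II and III. Both II was lowest, as for the 4 S100 genes, and both III second highest. Relative to these probe sets, S100a10 was -0.18, -0.45 and -0.07 in osteocalcin and -1.44, -1.30 and -0.62 in both colonies, still without overlap, with a difference between the means of -0.89. The differences between both and osteocalcin colonies became -0.50 for S100a6 and -0.55 for S100a11, and that of S100a4 turned to 0.03. S100a4 also turned positive, 0.15, under quantile normalization, where S100a10 stayed at -1.18. The summed signal of 5 of 5 smooth muscle markers (Acta2, Myh11, Cnn1, Tagln and Des) also varied widely, at 63672, 107614 and 239243 in osteocalcin, 61626, 11056 and 144641 in both and 41161, 24308 and 112702 in neither colonies I, II and III. It was lowest in both II, as were the 4 S100 genes, but highest in osteocalcin III, and low in neither II, where S100a4 was not. Summed over the 5 endothelial markers on the arrays, the signal was 2964 to 4875 in osteocalcin and 2759 to 3933 in both colonies. It was 1878 to 4549 in neither colonies. Of the 5 only Tek and Cldn5 passed the filter, and Pecam1 and Vwf were below the array median in all 9 colonies. The part of either marker set in the S100 levels was not tested.

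**Figure D3:**
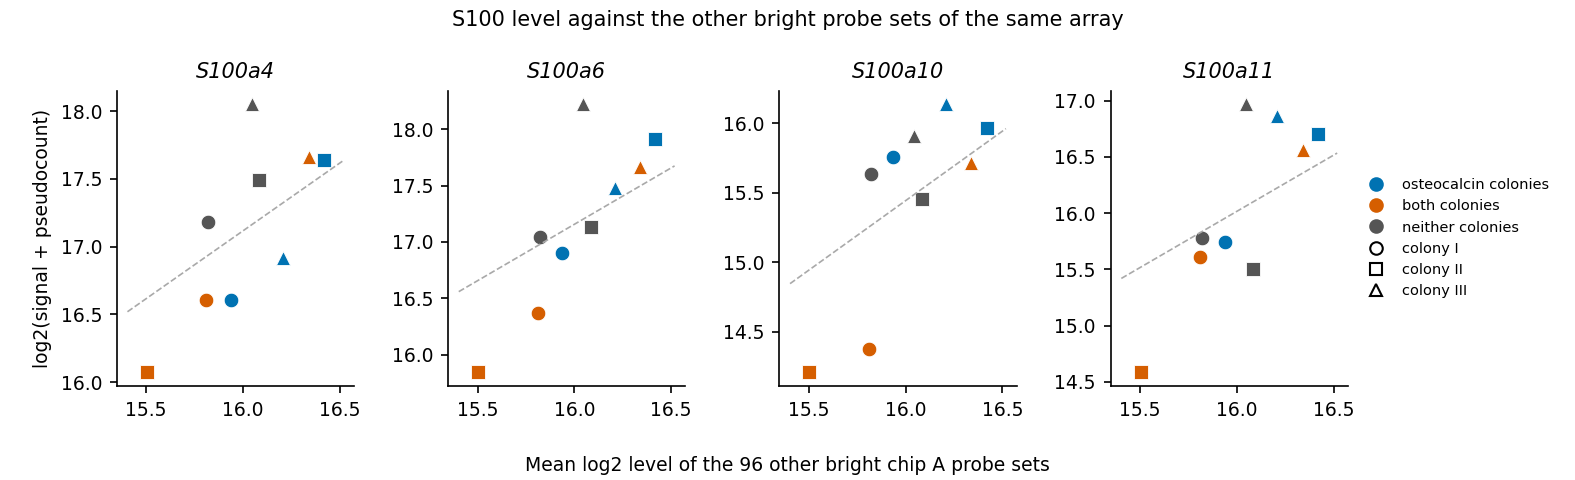
Log2 level of S100a4, S100a6, S100a10 and S100a11 (vertical axes) against the mean log2 level of the 96 other bright chip A probe sets of the same array (horizontal axes) in 9 colonies. The dashed line has a slope of 1 through the means, and for S100a10 both I and both II lie farthest below it.

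The bright S100 genes tracked one another across colonies, to unlike degrees. Given as a description over 9 colonies that share array scale and brightness range, Pearson's r was 0.928 between S100a6 and S100a11, 0.913 between S100a4 and S100a6, 0.870 between S100a6 and S100a10 and 0.822 between S100a10 and S100a11. It was lower between S100a4 and S100a11 (0.747) and between S100a4 and S100a10 (0.680). S100b reached 0.544 to 0.737 with the 4 bright genes. For comparison, the median r of S100a6 with all kept chip A probe sets was 0.02, and 21 of 9420 had a higher r with S100a6 than S100a11 had. With S100a4, however, 9.51% of the probe sets had a higher r than S100a10 had, and 5.71% a higher r than S100a11 had. Shares among equally bright probe sets were not computed.

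Dividing the signal of one gene by that of another on the same array removes the scale of the array. The log2 ratio of S100a4 to S100a6 was -0.30, -0.28 and -0.57 in osteocalcin I, II and III, 0.23, 0.23 and -0.004 in both and 0.14, 0.37 and -0.17 in neither colonies. All 3 osteocalcin colonies were below all 6 others, which means unequal levels of the neighbouring pair relative to each other and not which gene of the pair differed. All 6 pairs were looked at, and the ratios carry no test. The same separation held for S100a4 over S100a11, at 0.87, 0.93 and 0.05 in osteocalcin I, II and III against 1.00 to 1.99 in the other 6 colonies. The ratio of S100a4 to S100a10 was 0.85, 1.67 and 0.78 in osteocalcin against 2.24, 1.88 and 1.95 in both colonies, again without overlap. S100a6 over S100a11 did not overlap between osteocalcin (0.62 to 1.21) and neither colonies (1.25 to 1.63), while S100a6 over S100a10 and S100a10 over S100a11 overlapped between all types. How often ratios of other bright probe sets separate the types was not computed. Osteocalcin and neither colonies shared no station on chip A, so for their ratios type and station cannot be told apart.

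**Figure D4:**
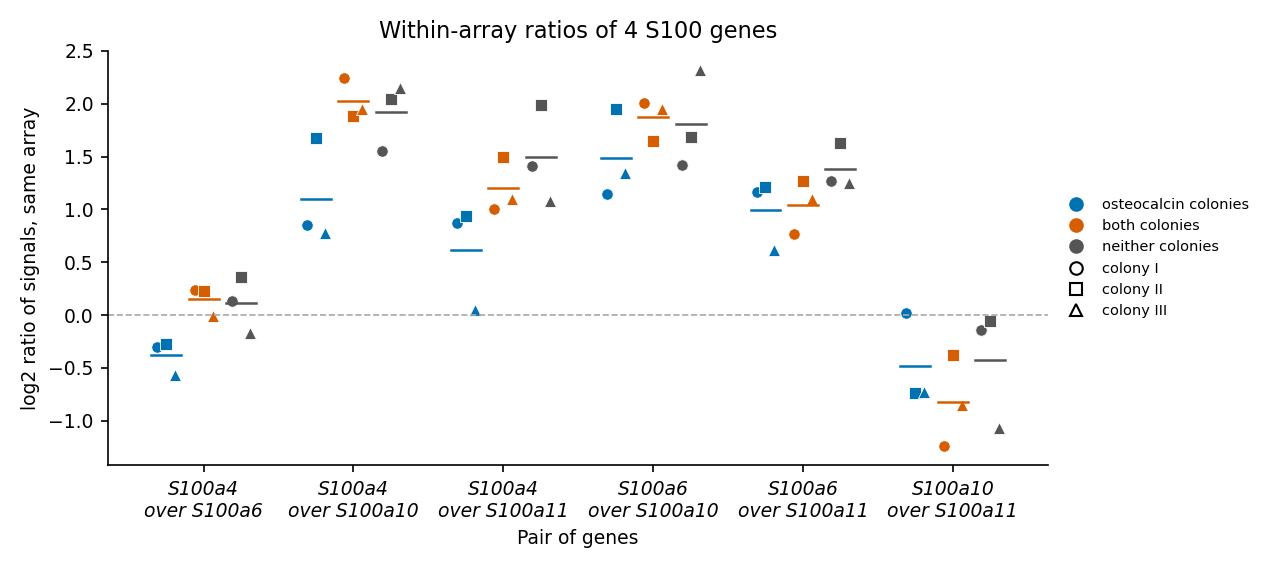
Log2 ratio of the signals of each pair of the 4 bright S100 genes on the same chip A array, with 1 symbol per colony and bars at the mean of each type. For S100a4 over S100a6 the osteocalcin colonies (-0.57 to -0.28) lie below the other 6 (-0.17 to 0.37).

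For each tested gene the 3 genes of chip A with the most similar pattern over the 9 colonies were listed, by Pearson's r with no test. S100a4 was most like Trib1 (0.972), Asb2 (0.957) and Txn1 (0.947). S100a6 was most like Med8 (0.984), Rgs22 (0.978) and Marveld1 (0.967), with Spearman's rho of 1.00 for the first pair of these. S100a10 was most like Tm2d1 (0.961), Cox5a (0.953) and Scarb2 (0.944), and S100a11 most like Cldn5 (0.968), Cmtm7 (0.966) and Mvb12a (0.959). The nearest pattern to S100b was that of Prmt2 (r = 0.946, rho = 0.95), followed by Rtcb (0.911) and Eif1ad (0.911). Prmt2, an arginine methyltransferase gene, is also the next gene on chromosome 20, 10.2 kb from S100b. Dip2a, which overlaps S100b on the other side, had an r of -0.17, with a dim probe set (66.7 to 1185). Prmt2 varied little, by 1.55-fold between the highest and the lowest colony.

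The rest of the S100 family was mostly dim. Of 13 further genes with S100 names on the list, 11 were on the arrays and 4 passed the filter: S100a3, S100a14, S100a16 and S100pbp, the last a binding protein and not an S100 protein. In each comparison 2 of the 4 had a higher and 2 a lower mean, with medians of 0.22 (both against osteocalcin), -0.07 (osteocalcin against neither) and 0.15 (both against neither), and 0 passed the test. S100pbp had the smallest p in each comparison, with 1.37 (SE 0.680, adjusted p = 0.523) for both against neither, 0.87 for both against osteocalcin and 0.50 for osteocalcin against neither. S100a16 came next with 0.45 and 0.53 in the comparisons that involve both colonies, and S100a14 with -0.35 in the other. S100a3, next to S100a4, lay between 1115 and 4549 and had an r of 0.661 with it. S100a5, between S100a4 and S100a6, was read on chip B, where it exceeded the array median only in osteocalcin II (3698) and both III (3010). S100g (calbindin D9k) was at 2191 in both III and at 60.4 to 590 in the other 8 colonies. S100a8 and S100a9, the neutrophil and macrophage pair, ranked at most at percentile 50.3.

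**Figure D5:**
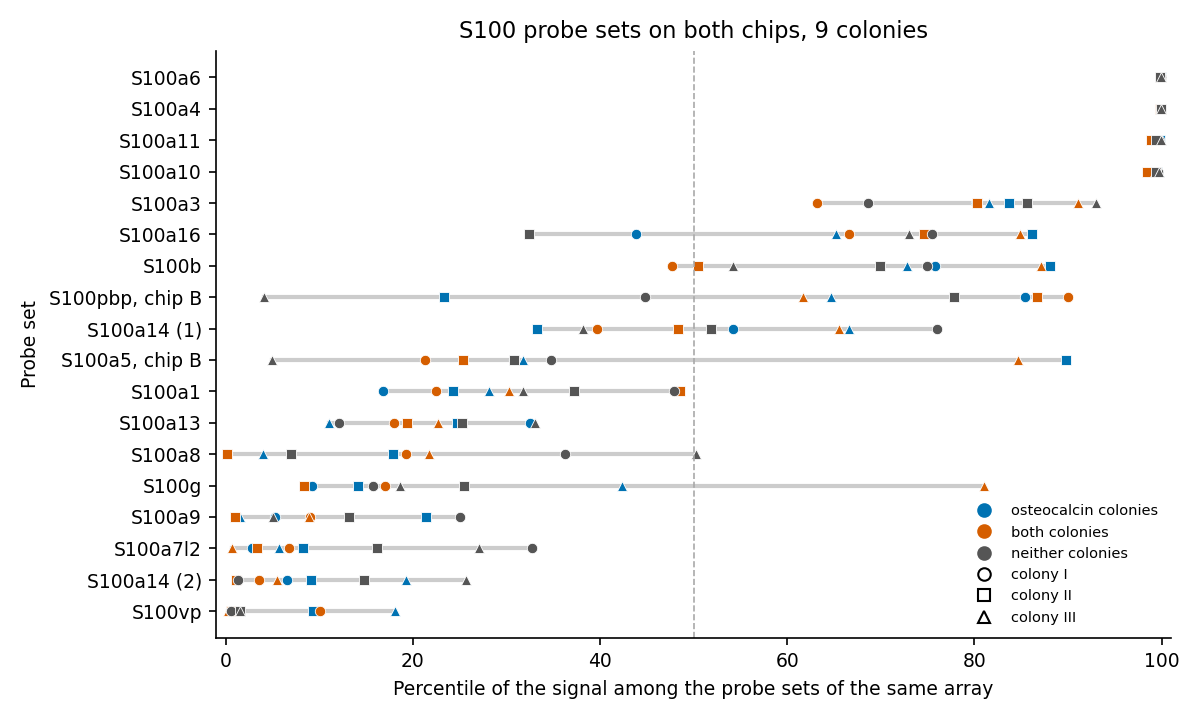
Percentile of the rescaled signal among the probe sets of the same array for every S100 probe set of either chip, 1 symbol per colony, with a dashed line at the median. S100a4, S100a6, S100a10 and S100a11 stand at the right edge in all 9 colonies, and S100pbp, S100a5 and S100g spread most widely.

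Known partners, targets and receptors of S100 proteins were counted on a list of 32 genes, of which 30 were on the arrays and 24 were tested. In both against osteocalcin 14 had a higher and 10 a lower mean (median 0.02, against -0.01 over all probe sets), in osteocalcin against neither 17 and 7 (median 0.23, against 0.03), and in both against neither 15 and 9 (median 0.25, against 0.01). In all 3 comparisons 0 of the 24 passed the adjusted threshold. Cacybp, the calcyclin-binding adaptor, had signals of 9247, 5320 and 9210 in osteocalcin I, II and III, 9956, 8175 and 4660 in both and 3802, 2710 and 1310 in neither colonies. Its 6 osteocalcin-positive colonies all lay above the neither colonies, by 1.55 for osteocalcin (SE 0.435, adjusted p = 0.610) and 1.47 for both (adjusted p = 0.406). Bright signals of chip B were lower in general in the neither colonies. The signal ranked 100th was 12289, 15386 and 8508 in neither I, II and III and 15548 to 21185 in the 6 osteocalcin-positive colonies. Its part in the order of this Cacybp probe set was not tested. With this probe set the order held within each station of chip B, with neither I below both I to III and neither II and III below osteocalcin I to III. It did not hold for a second, dimmer Cacybp probe set of chip B, which was highest in neither I (2437) and lay between 827 and 2339 in the 6 osteocalcin-positive colonies. Its partner S100a6 differed by -0.03 and -0.84 in the same comparisons.

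Anxa2, the partner of S100A10, had signals of 36056, 65549 and 60106 in osteocalcin, 42728, 37789 and 76887 in both and 33604, 14533 and 39757 in neither colonies I, II and III. Osteocalcin and both colonies overlapped, with a log2 difference of -0.06 (SE 0.472, adjusted p = 1.00) where S100a10 gave -1.19; the difference between these 2 differences was not tested. Against the neither colonies Anxa2 was higher in osteocalcin colonies by 0.95 (adjusted p = 0.680), and its second, dimmer probe set on chip B pointed the other way. Anxa1, the partner of S100A11, ranged from 24825 to 53535 on chip A, and from 670 to 8055 with its second probe set on chip B. Ager, the receptor for secreted S100 proteins, was below the array median in all 9 colonies (44.5 to 381). Mdm2, the p53 ubiquitin ligase, had the smallest p for both against osteocalcin, at -1.28 (SE 0.636, adjusted p = 1.00), followed by Pgm1, a phosphoglucomutase, at -0.55. This Mdm2 probe set of chip A ranged from 209 to 5501. A brighter Mdm2 probe set on chip B read 67685, 36037 and 60906 in osteocalcin I, II and III. In both I, II and III it read 54022, 31261 and 49614, so the types overlapped. Kcnk3, a potassium channel that S100A10 binds, had -1.26 for both against neither (adjusted p = 0.438).

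Other EF-hand and calcium-sensor genes were counted on a list of 29, of which 25 were on the arrays and 19 were tested. Of these, 7 had a higher and 12 a lower mean in both against osteocalcin (median -0.09), 15 and 4 in osteocalcin against neither (0.20) and 12 and 7 in both against neither (0.27), with 0 passing in any comparison. Sdf4, a calcium-binding protein of the Golgi lumen, had signals of 19203, 18336 and 20085 in osteocalcin and 9872, 8546 and 10853 in neither colonies, without overlap, a difference of 0.97 (SE 0.310, adjusted p = 0.610). Capn1, the catalytic subunit of a calcium-dependent protease, ran opposite, at 905, 999 and 444 in osteocalcin and 1760, 1433 and 1759 in neither colonies (-0.93, adjusted p = 0.621). Its regulatory subunit gene Capns1 had the smallest p of the list in both against neither, with 1.30 (adjusted p = 0.430), followed by Capn1 with -0.73. In both against osteocalcin the smallest p were those of Nucb2 (nucleobindin 2), at -0.86, and Myl9, a myosin light chain, at -1.14.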

How the data were processed

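The deposited values are linear signal intensities, 1 per probe set, that the authors computed with MAS5 (version not stated), per the submitters' processing notes. The deposited array records gave fluidics station, and the hybridization day of the chip A array of osteocalcin I, which differed from that of the other chip A arrays. Each array was rescaled to a 2%-trimmed mean of 1500 over all its probe sets, and its 57 control probe sets were then set aside. Probe sets above the median of the array in 3 or more of the 9 colonies were kept (9421 of 15923 on chip A, 9895 of 15333 on chip B, totals that include the controls). Signals entered as log2(signal + 239.4) on chip A and log2(signal + 336.1) on chip B, the pseudocount being the median over arrays of the 25th percentile, so that changes of dim probe sets are understated. The model, fitted per chip in R 4.3.3 by limma 3.58.1, held the 3 type means and an intensity trend, leaving 6 residual degrees of freedom, and p-values were adjusted over both chips (Benjamini-Hochberg). Adjusted p-values in the text are limma's, two-sided. The smallest p of an exact permutation test at this size is 0.1. The step was tested on simulated data.

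Genes of a list were represented by 1 probe set. Named list genes were the 2 with the smallest p per comparison; S100a3, S100a5, S100g, S100a8, S100a9, Anxa1, Ager and the Anxa2 values for both against osteocalcin were named after their values were seen. The members and lists were chosen with earlier results of these data known. Names came from the platform annotation, sequences and coordinates from RefSeq (GRCr8). No probe set with several symbols was named.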

Additional observations from a re-analysis of the deposited data

How the results depend on the processing

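Signed values here are log2 differences, first type minus second. The count of probe sets called, 0 in each comparison, became 2 for both against osteocalcin on signals as deposited, 2 with a doubled pseudocount, 2 with a replicate block, 87 with array weights and 38 within station 1 of chip A, and ran from 0 to 1 leaving out 1 colony. For both against neither it became 10 with array weights and ran from 0 to 3 leaving out 1 colony. For osteocalcin against neither it stayed at 0 in the alternatives run. S100a10 in both against osteocalcin was called in 2 of 20 alternatives with a test, and no other S100 gene in any; leaving out 1 colony it ran from -1.67 to -0.91.

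Signals as deposited, where 1 array is on another scale and the chip A median shifts by 0.86 and -0.89, reversed both against osteocalcin for S100a4 (1.22), S100a6 (0.69), S100a10 (0.28), S100a11 (0.62) and S100b (0.19), and osteocalcin against neither for S100a10 (-1.18), S100a11 (-1.12) and S100b (-0.45), and raised the SD over the colonies to 1.79, 1.76, 1.52 and 1.76 for S100a4, S100a6, S100a10 and S100a11. With station as a block, osteocalcin against neither became 0.79 for S100a4 and 1.52 for S100a6, and grew to 1.72 for S100a10, 1.82 for S100a11 and 2.32 for S100b; the types shared no station there, so these values rest on the contrast of both III with both I and II. In both against neither the block, like station 2 alone (both III against the 3 neither colonies), gave 0.081 for S100a4, 0.20 for S100a6, 0.053 for S100a10, 0.48 for S100a11 and 0.99 for S100b. Quantile normalization reversed S100a4 in both against osteocalcin (0.15) and S100a6 in osteocalcin against neither (0.30). The latter, near 0, also reversed with array weights (0.20), without the chip A array of osteocalcin I (0.23) and leaving out 1 colony (-0.27 to 0.35). Leaving out 1 colony reversed S100a4 in both against osteocalcin (-0.71 to 0.080) and S100b in both against neither (-0.88 to 0.092), and levels relative to the other bright probe sets, an alternative chosen after seeing the data, reversed S100a4 in both against osteocalcin (0.0305). Beyond the construction of these alternatives, the cause was not tested. Same-numbered colonies of different types correlated from -0.151 to 0.325 in their deviations. Differently numbered colonies were not compared, so these values cannot decide whether the numerals pair colonies, and the labels do not state it. In this balanced design the replicate block can move p-values only, and it called 0 of the S100 genes. Dim signal limits S100a1, and the number of arrays limits precision for all.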
